A study of Arabidopsis thaliana with 24 samples.

Results

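Leaves of the grf6 grf8 double mutant of Arabidopsis thaliana were compared after 2 h of dehydration with leaves of the same genotype at 0 h. The comparison rests on 8 of the 24 mRNA libraries of the series, 4 per group, which were chosen by their sample titles alone. Leaves of grf6 grf8 plants dehydrated for 2 h were set against leaves of grf6 grf8 plants at 0 h. WT leaves at 2 h and at 0 h, also 4 libraries each, were used to ask whether the change differed between the genotypes. All 24 libraries were fitted together. The WT libraries thus also entered the filter on low counts, the scaling and the estimate of spread behind the calls in grf6 grf8. All plants were 24 days old, having spent 12 days on 1/2 MS plates and 12 days in soil, and the tissue was the rosette leaf. The mutant alleles, the number of plants per library and the way in which water was withheld are not given in the sources used here, and every mutant library carries both mutations. The labels number the replicates without saying that they came from separate plants, so the p-values below measure the spread between these samples, which may be technical. No watered plants taken at 2 h are among the groups, so dehydration and the 2 h of the day that passed cannot be told apart.

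GRF6 and GRF8 encode 14-3-3 proteins, small adaptor proteins that bind phosphorylated partners and change their activity, location or stability. The symbol stands here for GENERAL REGULATORY FACTOR, and the growth-regulating factors that share it are unrelated transcription factors. A leaf that loses water makes the hormone abscisic acid (ABA), which binds PYR/PYL receptors. The receptors then hold back clade A PP2C phosphatases, SnRK2 kinases become active, and ABF transcription factors bind ACGT-containing elements in the promoters of protective genes. Stomata close, osmolytes and late embryogenesis abundant (LEA) proteins accumulate, and growth and photosynthesis are turned down.

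The 8 libraries held between 17.5 and 22.4 M counts. Counts were scaled to CPM, counts per M counts of the TMM-scaled library, and a gene was called when the adjusted p of the edgeR quasi-likelihood test was under 0.05. Where a gene is said to have risen or fallen by a value, or has a signed value in brackets, the value is its log2 fold change, 2 h over 0 h. The first principal component of the 8 libraries held 70.9% of the variance and separated the 2 h libraries from the 0 h libraries, and the second held 9.55%. Replicate 3 at 2 h lay nearest to the 0 h libraries on the first component (-57.3, against -80.1 to -95.6 for the other 2 h libraries) and apart from them on the second. Replicate 1 at 0 h had the highest score of 17 cell division genes (mean log2 CPM 1.34), while the 2 h libraries ranged from -0.11 to 0.68 and the other 0 h libraries from 0.11 to 0.23. It is 1 of 5 libraries of the series in which these genes were high. Transcripts of 5 mesophyll genes took between 2.49 and 3.45% of counts in the 2 h libraries, against between 4.21 and 4.99% in the 0 h libraries, and no root marker passed the filter on low counts. Since whole leaves were sampled, fewer cells of a type and less RNA per cell cannot be told apart for any transcript below.

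A large part of the mutant's leaf transcriptome differed between 2 h and 0 h. Of 18841 genes tested, 4363 rose (23.2%) and 3821 fell (20.3%), 43.4% of all genes together. Among them 1137 rose and 735 fell at least 4-fold, and 226 rose and 88 fell at least 16-fold. The 4 and 4 libraries did not overlap for 49.6% of the genes tested. The median log2 fold change over all genes tested was 0.01. Without replicate 1 at 0 h 3986 genes rose and 3642 fell, and without replicate 3 at 2 h 4245 rose and 3700 fell.

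**Figure D1:**
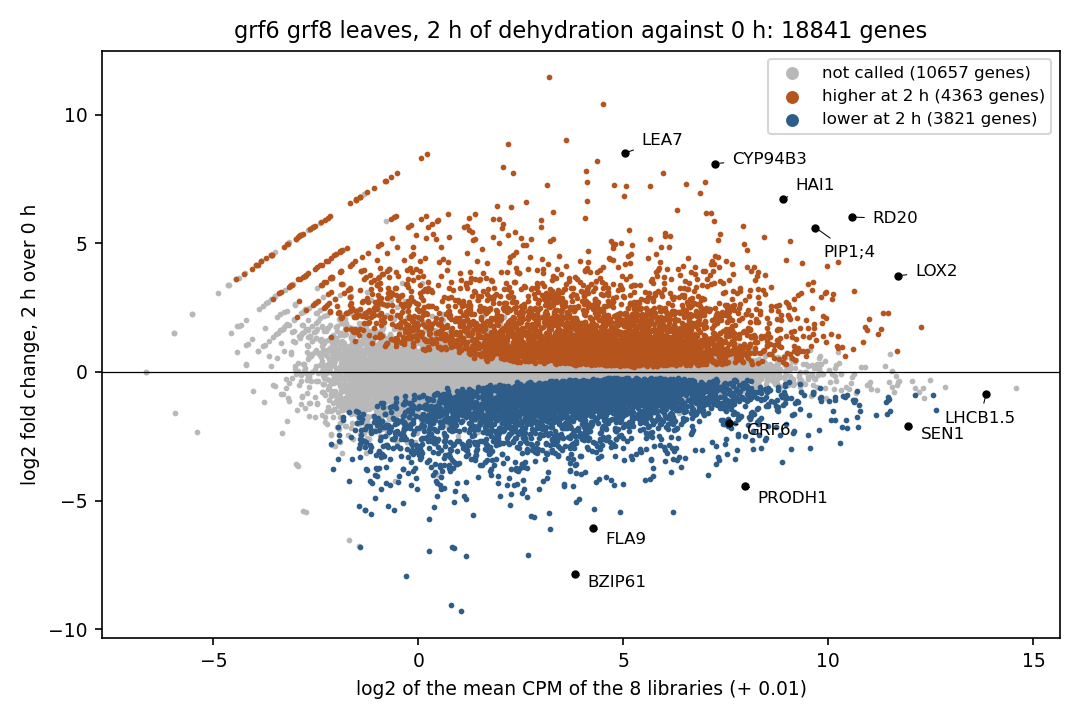
Log2 fold change of 18841 genes (vertical axis, 2 h over 0 h in grf6 grf8 leaves) against the log2 of their mean CPM in the 8 libraries (horizontal axis). Orange points are the 4363 genes that rose, blue points the 3821 that fell and grey points the 10657 that were not called. The labelled genes are named in the text and include large changes and smaller ones, such as LHCB1.5 (-0.87). The diagonal streaks at the left are genes with no or very few counts in 1 group.

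The mutated genes were examined first. GRF6 (AT5G10450, chromosome 5, 3283853 to 3286537, TAIR10.1) had 73.1, 65.7, 95.5 and 76.6 CPM in the 2 h libraries, against 208, 301, 332 and 388 CPM in the 0 h libraries. All 2 h libraries lay below all 0 h libraries, and GRF6 fell 3.95-fold (log2 fold change -1.98 ± 0.25 (SE), adjusted p = 2.55e-06). GRF8 (AT5G65430) had 90.3, 80.2, 85.1 and 84.0 CPM in the 2 h libraries, against 75.6, 86.1, 80.0 and 90.3 CPM in the 0 h libraries. The groups overlapped, and GRF8 was not called (log2 fold change 0.03 ± 0.18 (SE), adjusted p = 0.901). In WT, GRF6 averaged 734 ± 160.1 CPM at 2 h, against 1573 ± 195 CPM at 0 h, and GRF8 averaged 122 ± 17.97 CPM at 2 h, against 289.99 ± 43.0 CPM at 0 h (SD, n = 4 each), so both means were lower in the mutant than in WT at either time. In WT both genes were called lower at 2 h (log2 fold changes -1.10 and -1.25, adjusted p = 0.00105 and 1.52e-05). The difference between the genotypes in this change was 1.29 on the log2 scale for GRF8, with an unadjusted p of 5.77e-05 and an adjusted p of 0.362. It was called by DESeq2 (adjusted p = 0.016), in a fit of the 4 groups alone (0.0103) and with the cell division score as a covariate (0.00473), and over all alternatives its adjusted p ranged from 0.00473 to 1.

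The 14-3-3 family as a whole was called in both directions. Of 11 tested members, GRF6 and GRF8 included, 6 rose and 2, GRF6 and GRF11, fell, beside 23.2% and 20.3% of all genes. The median log2 fold change was 0.36. GRF3 (AT5G38480) had 398, 379.6, 380.1 and 367 CPM in the 2 h libraries, against 140.3, 124, 131 and 129.7 CPM in the 0 h libraries, a 2.904-fold rise without overlap between the groups (log2 fold change 1.54 ± 0.14 (SE), adjusted p = 4.28e-08). GRF11 had 10.9, 14.9, 17.5 and 9.94 CPM in the 2 h libraries, against 29.5, 42.5, 49.6 and 60.2 CPM in the 0 h libraries and fell (log2 fold change -1.77 ± 0.39 (SE), adjusted p = 0.000915). GRF4, GRF5 and GRF7 rose by log2 fold changes of 0.60, 0.64 and 1.13, and in WT the same genes had 0.62, 0.67 and 0.82. In deposited FPKM, which allow for gene length, GRF3 stood at 325 ± 17.62 FPKM at 2 h, against 116 ± 14.4 FPKM at 0 h, while GRF6 stood at 52.9 ± 9.37 FPKM at 2 h, against 213 ± 36.7 FPKM at 0 h (SD, n = 4). GRF3 was thus above GRF6 in FPKM at 2 h, and below it at 0 h.

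The 12 genes with the highest log2 fold change were chosen among called genes with at least 10 CPM in a group and no overlap. Their groups are therefore separate by choice. All 12 averaged under 2 CPM at 0 h. LEA7, an LEA protein gene, had 63.3, 62.2, 69.4 and 67.5 CPM in the 2 h libraries, against 0.101, 0.111, 0.217 and 0.262 CPM in the 0 h libraries. Every 2 h library lay far above every 0 h library, and the ratio of the means was 379-fold (log2 fold change 8.51 ± 0.52 (SE), adjusted p = 2.89e-10). CYP94B3, an enzyme that oxidises and so inactivates the hormone jasmonoyl-isoleucine, had 291, 370.3, 135 and 414 CPM in the 2 h libraries, against 2.38, 0.835, 1.03 and 0.105 CPM in the 0 h libraries. MAPKKK18, a kinase at the head of an ABA-activated MAP kinase cascade, had 126, 154, 111 and 109 CPM in the 2 h libraries, against 0.456, 0.779, 0.758 and 0.367 CPM in the 0 h libraries. RAP2.6, an ERF-type transcription factor, had 324, 199, 223 and 268 CPM in the 2 h libraries, against 3.24, 1.06, 1.35 and 0.315 CPM in the 0 h libraries. These 3 genes rose 278-fold, 212-fold and 169.9-fold in mean CPM, and in each the 2 h libraries lay far above all 0 h libraries.

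KCS2, which elongates the fatty acids of suberin and wax, averaged 99.1 ± 18.1 CPM at 2 h, against 0.659 ± 0.315 CPM at 0 h. LEA4-5 averaged 54.4 ± 11.3 CPM at 2 h, against 0.345 ± 0.112 CPM at 0 h, and AT3G02480, another LEA family gene, averaged 17.595 ± 5.69 CPM at 2 h, against 0.106 ± 0.0423 CPM at 0 h. ILL5, which belongs to the hydrolases that release hormones from amino acid conjugates, averaged 34.6 ± 24.995 CPM at 2 h, against 0.205 ± 0.279 CPM at 0 h and had the largest SE among the 12 genes with the highest log2 fold change. AT5G50360, AT2G43580 and AT1G69480, which carry no symbol in the annotation used, averaged 40.7 CPM at 2 h, against 0.132 CPM at 0 h, 33.9 CPM at 2 h, against 0.147 CPM at 0 h and 184 CPM at 2 h, against 1.17 CPM at 0 h. For AT4G33905 the 0 h libraries held 3 counts in all, against 1950 in the 2 h libraries, so the ratio lies between 208 and 2948 by a 95% counting interval that covers counting error only.

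The deepest relative falls, chosen by the same rule, included genes of the growing wall and a transcription factor. FLA9, an arabinogalactan protein of the cell wall, had 0.444, 0.479, 0.617 and 0.682 CPM in the 2 h libraries, against 68.6, 32.3, 17.01 and 32.4 CPM in the 0 h libraries. The 2 h libraries differed little among themselves while the 0 h libraries ranged widely, with replicate 1, the library high in cell division transcripts, at the top (log2 fold change -6.06 ± 0.61 (SE), adjusted p = 1.61e-07). The bZIP factor BZIP61 had 0.333, 0.0479, 0.0475 and 0.0487 CPM in the 2 h libraries, against 37.8, 22.9, 17.7 and 33.9 CPM in the 0 h libraries. XTH25, a wall enzyme that cuts and rejoins xyloglucan, had 0.277, 0.239, 0.522 and 0.536 CPM in the 2 h libraries, against 8.87, 15.697, 14.2 and 32.7 CPM in the 0 h libraries. EXPA11, an expansin, had 1.72, 0.479, 0.997 and 0.633 CPM in the 2 h libraries, against 52.2, 39.0, 7.42 and 19.4 CPM in the 0 h libraries, and again the 0 h libraries ranged widely, with replicate 1 highest (log2 fold change -4.95 ± 1.27 (SE), adjusted p = 0.00348). The part of cell division in these falls was not tested. FLA9 and EXPA11 kept their calls in all 16 alternative fits, that without replicate 1 at 0 h included. Their log2 fold changes there ranged from -6.32 to -5.60 and from -5.37 to -4.52.

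EXL3, of the EXORDIUM-like family, averaged 1.37 ± 0.676 CPM at 2 h, against 59.4 ± 9.99 CPM at 0 h. AACT1, an acyltransferase gene, averaged 0.264 ± 0.197 CPM at 2 h, against 13.2 ± 9.73 CPM at 0 h. GAT1_2.1, a glutamine amidotransferase-like gene, averaged 0.827 ± 0.649 CPM at 2 h, against 27.7 ± 14.3 CPM at 0 h. AT1G19530, AT3G54830, AT1G50040, AT1G15125 and AT4G12980 completed the 12 lowest, with log2 fold changes of -7.10, -6.11, -5.63, -5.43 and -5.32. The strand of the reads was not stated to be used in counting, and 163 bases of GAT1_2.1 are shared with a tested gene of the opposite strand, so reads of the overlap cannot be told apart. AT1G15125 shares 183 bases with a tested gene of its own strand.

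The lipoxygenase LOX2, which starts jasmonate synthesis in the chloroplast, had 5856, 6911, 5419.7 and 6707 CPM in the 2 h libraries, against 712, 525, 391 and 235 CPM in the 0 h libraries. This was the largest gain in CPM among called nuclear genes without overlap between the groups. The dehydrin COR47 had 8750.4, 7218, 7645 and 6941 CPM in the 2 h libraries, against 1312, 2298, 2627 and 2756 CPM in the 0 h libraries, and the related dehydrin ERD10 had 5154, 4677, 4288 and 4674 CPM in the 2 h libraries, against 593, 937, 1122 and 1155 CPM in the 0 h libraries. RD29A, a long-used marker of osmotic stress, had 4987, 3461, 4659 and 4046 CPM in the 2 h libraries, against 648, 871, 1031 and 948 CPM in the 0 h libraries. In all 4 genes the groups were separate, as the choice of the largest gains required, and 0 h replicate 1 was the lowest of its group for COR47, ERD10 and RD29A. KIN2 averaged 3819 ± 749 CPM at 2 h, against 1208 ± 346 CPM at 0 h, and its neighbour and near copy KIN1 averaged 477 ± 114 CPM at 2 h, against 15.3 ± 9.30 CPM at 0 h. Reads shared by KIN1 and KIN2, or by COR47 and ERD10, may have been split between the copies when counts were estimated.

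Among called genes without overlap, the largest losses in CPM were in light-harvesting genes, a catalase and a dark-induced gene. LHCB1.3, which was not called (log2 fold change -0.64), had a larger difference, with a mean of 19190.1 CPM at 2 h, against 29857 CPM at 0 h. LHCB1.5, a light-harvesting protein of photosystem II, had 9084, 11963, 12413 and 8227 CPM in the 2 h libraries, against 14906, 16858, 19462 and 24792 CPM in the 0 h libraries, but its call was weak (log2 fold change -0.87 ± 0.35 (SE), adjusted p = 0.0473) and was lost when any 1 of the 4 libraries at 2 h was left out, and without replicate 2, 3 or 4 at 0 h. Its copies of the LHCB1 group are nearly identical, which makes the division of reads among them uncertain. The catalase CAT3 had 3002, 3051, 3634 and 3589 CPM in the 2 h libraries, against 9511, 9880.3, 7505 and 10199 CPM in the 0 h libraries and fell clearly (log2 fold change -1.48 ± 0.21 (SE), adjusted p = 1.1e-05). SEN1, a gene induced in darkness and in senescence, had 1468, 1135, 1982 and 1348 CPM in the 2 h libraries, against 3952, 6285, 7017 and 8296 CPM in the 0 h libraries (log2 fold change -2.11 ± 0.49 (SE), adjusted p = 0.00157). LHCB1.1 averaged 1348 CPM at 2 h, against 4156 CPM at 0 h, and LHCA4 averaged 4186 CPM at 2 h, against 7874 CPM at 0 h, its call being lost without 2 h replicate 1, 2 h replicate 4, 0 h replicate 3 or 0 h replicate 4. By deposited FPKM the 3 highest transcripts at 2 h were LHCB1.3, LHCB1.5 and KIN2, with COR47 in rank 5 and COR15A, which encodes a chloroplast protein that protects membranes, in rank 8. At 0 h the top 3 were LHCB1.3, LHCB1.5 and RBCS1A, SEN1 was in rank 5 and CAT3 in rank 11.

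**Figure D2:**
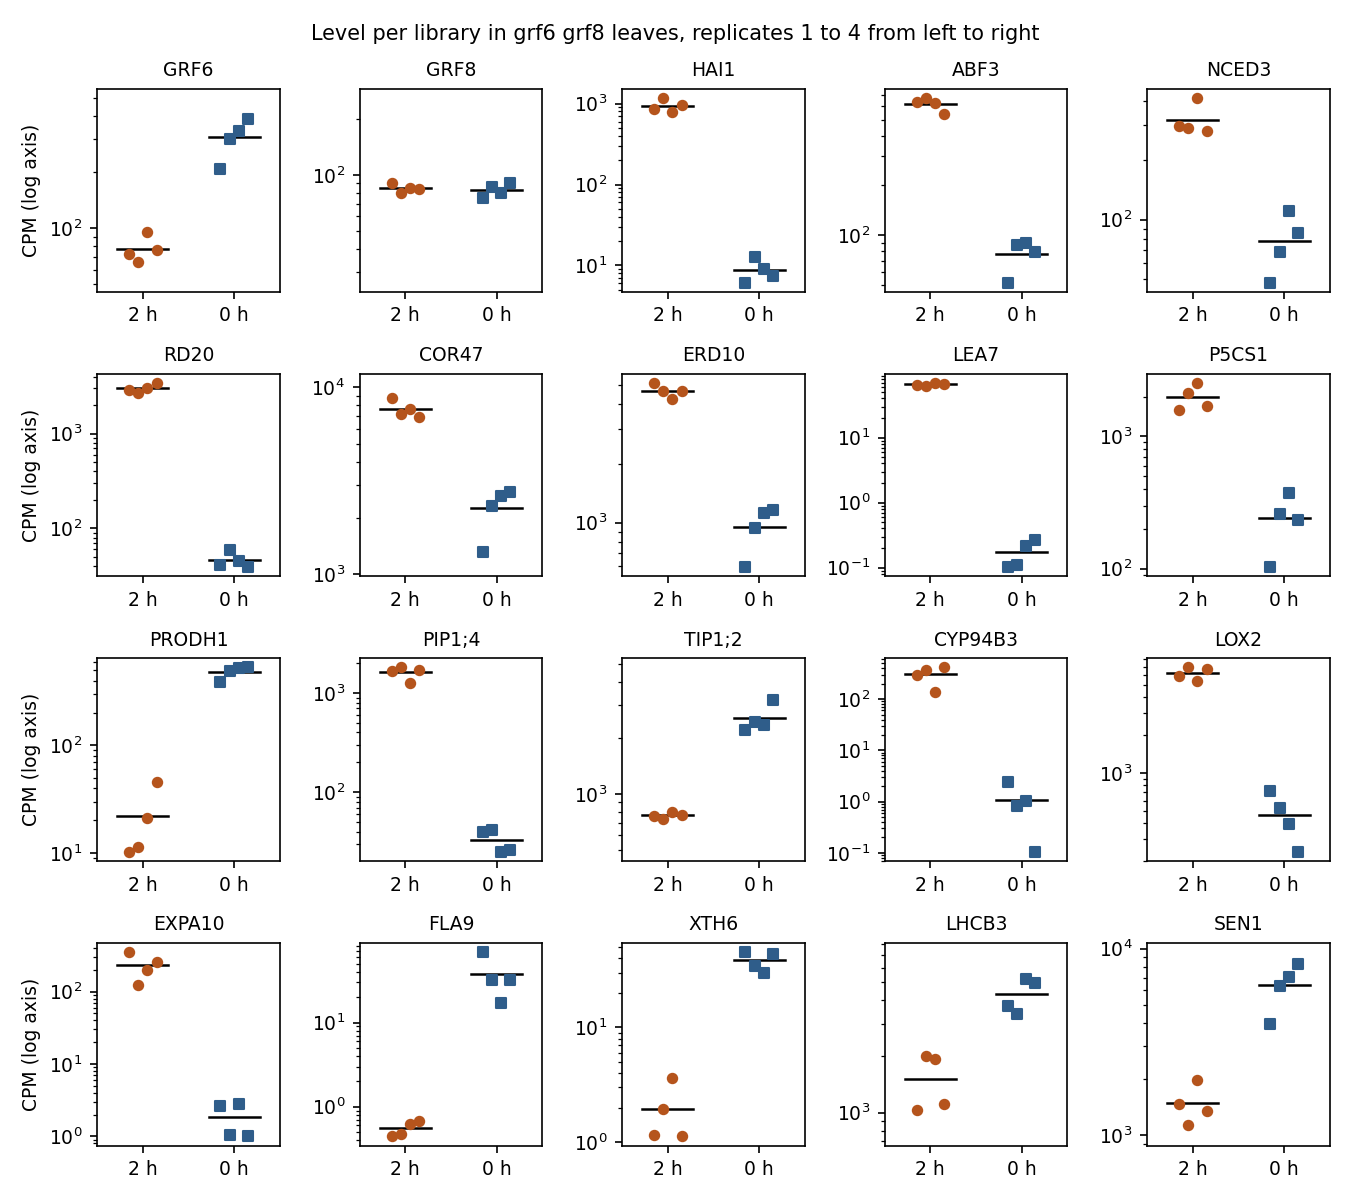
CPM of 20 genes in each grf6 grf8 library (vertical axes, log scale with a range of their own), with the 2 h libraries at the left (orange circles) and the 0 h libraries at the right (blue squares), replicates 1 to 4 from left to right and a bar at the mean. GRF8 overlaps between the groups at 75.6 to 90.3 CPM, while each of the other 19 genes shows 2 separate groups, and FLA9 and P5CS1 show replicate 1 of the 0 h group apart from the rest.

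ABA signalling changed broadly at its phosphatases. All 8 tested clade A PP2C genes rose (median log2 fold change 3.69, or 3.24 with AHG1, which had no counts at 0 h, given 3 counts there). Together they took 0.463% ± 0.0168 of counts in the 2 h libraries, against 0.0439% ± 0.00706 in the 0 h libraries. HAI1 had 869.5, 1166, 794 and 958 CPM in the 2 h libraries, against 6.13, 12.9, 8.99 and 7.39 CPM in the 0 h libraries, a 107-fold difference (log2 fold change 6.74 ± 0.51 (SE), adjusted p = 3.52e-09). ABI1, the best-known member, had 1364, 1459.8, 1400.2 and 1384 CPM in the 2 h libraries, against 124, 175, 171 and 143 CPM in the 0 h libraries. For both genes the groups were far apart beside the spread within them. ABI2, HAI2 and HAB1 averaged 202 CPM at 2 h, against 11.9 CPM at 0 h, 183 CPM at 2 h, against 8.47 CPM at 0 h and 709.9 CPM at 2 h, against 72.3 CPM at 0 h. AHG1 had 9 counts over the 2 h libraries and none at 0 h. Against a floor of 3 counts over the 0 h group it was 2.804-fold higher, a value that takes the 9 counts as exact.

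Upstream of the phosphatases, 4 of 7 tested genes of ABA synthesis rose and none fell, beside 23.2% and 20.3% of all genes. NCED3, the enzyme that limits ABA synthesis under drought, had 298, 291, 412 and 282 CPM in the 2 h libraries, against 48.0, 68.4, 111 and 85.6 CPM in the 0 h libraries. Every 2 h library lay above every 0 h library, and NCED3 rose 4.103-fold (log2 fold change 2.04 ± 0.28 (SE), adjusted p = 7.39e-06). AAO3 and ABA3, which complete the pathway and supply its cofactor, rose by log2 fold changes of 1.46 and 1.54. NCED5 rose at a level under 1 CPM with overlapping groups (log2 fold change 2.16 ± 0.61 (SE), adjusted p = 0.00666), and ABA1, the zeaxanthin epoxidase, was not called (0.57, adjusted p = 0.0754). Of 11 genes that break down, conjugate, release or carry ABA, 5 rose and 1 fell, beside 23.2% and 20.3% of all genes. Those that rose were the exporters DTX50 (2.99) and ABCG25 (1.81), the 8'-hydroxylase CYP707A2 (2.04), the glucosyltransferase UGT71B6 (1.13) and BGLU18 (2.42), a glucosidase that frees ABA from its ester. The importer NPF4.6 was called lower (-0.42, adjusted p = 0.0448), a call lost without 7 of the 8 libraries taken out in turn.

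Receptors and kinases moved both ways. Of 8 tested receptors, 3 rose and 2 fell, beside 23.2% and 20.3% of all genes. PYL7 had 161, 185, 122 and 152 CPM in the 2 h libraries, against 31.3, 40.7, 46.5 and 39.9 CPM in the 0 h libraries. PYL8 had 141, 126, 154 and 121 CPM in the 2 h libraries, against 222, 302, 276 and 368 CPM in the 0 h libraries. PYL7 lay higher at 2 h in all libraries and PYL8 lower, and 571 bases of PYL7, 37.2% of the gene, are shared with a tested gene on the opposite strand. PYL9 and PYL5 rose (1.07 and 1.27) and PYL4 fell (-1.99). Of 10 SnRK2 kinases 1 rose and 3 fell, beside 23.2% and 20.3% of all genes. SNRK2.7 rose at a low level (2.73 CPM at 2 h, against 0.200 CPM at 0 h), and SNRK2.10, SNRK2.2 and SNRK2.9 fell (-0.78, -0.45 and -2.66).

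Downstream of the kinases, 4 of 5 tested ABF and ABI factors rose, beside 23.2% of all genes. ABF3 had 640.1, 673, 626 and 539.6 CPM in the 2 h libraries, against 51.6, 87.2, 89.0 and 78.9 CPM in the 0 h libraries. ABF2 had 199, 178, 218 and 168 CPM in the 2 h libraries, against 19.5, 24.8, 21.4 and 20.1 CPM in the 0 h libraries. Both rose without overlap, with log2 fold changes of 3.01 and 3.15. ABI5, the factor of seed dormancy, averaged 8.06 ± 2.61 CPM at 2 h, against 1.83 ± 0.418 CPM at 0 h. ABF4 was called at 0.43 (adjusted p = 0.0372), and its call was lost without any of the 8 libraries in turn. ABF1 was not called (0.18, adjusted p = 0.197). Among proteins that bind ABI5 or attach ubiquitin in this pathway, 5 of 10 rose and 1 fell, beside 23.2% and 20.3% of all genes. AFP1 had 352, 369, 318 and 348 CPM in the 2 h libraries, against 10.7, 23.3, 16.7 and 19.7 CPM in the 0 h libraries. TMAC2, AFP2, AFP3 and RDUF2 rose by 3.79, 1.72, 1.398 and 0.61, and PUB22 was called lower (-1.06, adjusted p = 0.0491) with overlapping groups, a call lost without 7 of the 8 libraries in turn. RDUF2 was not called without 2 h replicate 2 or 0 h replicate 3.

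In the MAP kinase cascade that ABA activates, 3 of 8 members rose and 2 fell, beside 23.2% and 20.3% of all genes. Besides MAPKKK18, its close relative MAPKKK17 averaged 7.63 ± 2.49 CPM at 2 h, against 0.116 ± 0.132 CPM at 0 h and MPK7 averaged 157 ± 8.09 CPM at 2 h, against 38.6 ± 3.27 CPM at 0 h. MPK1 and MPK2, kinases of the same group as MPK7, fell by small amounts (-0.54 and -0.37), MPK1 not without 2 h replicate 2.

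LEA proteins are small hydrophilic proteins that protect membranes and other proteins in drying cells, and dehydrins are a class of them. Of 22 tested genes 20 rose and none fell, with a median log2 fold change of 3.07. It was 2.84 with the 3 genes that had no counts at 0 h given 3 counts there. They took 2.48% ± 0.298 of counts in the 2 h libraries, against 0.635% ± 0.119 in the 0 h libraries. Besides LEA7 and LEA4-5, LTI30 had 183, 115, 167 and 166 CPM in the 2 h libraries, against 15.6, 19.6, 34.9 and 9.28 CPM in the 0 h libraries. KIN1 had 609, 378, 534 and 385 CPM in the 2 h libraries, against 4.97, 12.5, 27.3 and 16.3 CPM in the 0 h libraries, with a 0 h group that ranged widely and stayed below every 2 h library. The seed-type genes EM1, EM6 and ECP63 had 12, 21 and 24 counts over the 2 h libraries and none at 0 h. Against a floor of 3 counts at 0 h they were 3.74-fold, 6.54-fold and 7.48-fold higher. They are known best from seeds, and they were rare here.

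Of 18 further dehydration markers 15 rose and none fell (median 2.402). RD20, a calcium-binding caleosin of lipid bodies, had 2874, 2659, 3023 and 3441 CPM in the 2 h libraries, against 41.1, 59.3, 45.1 and 39.0 CPM in the 0 h libraries. The 2 h libraries lay close together and all stood far above the 0 h libraries (log2 fold change 6.02 ± 0.34 (SE), adjusted p = 1.37e-10). HVA22D had 387, 243, 235 and 261 CPM in the 2 h libraries, against 16.2, 14.5, 20.1 and 10.2 CPM in the 0 h libraries. TSPO, a membrane protein that binds porphyrins and is induced by ABA, had 41.3, 72.2, 48.7 and 46.8 CPM in the 2 h libraries, against 0.811, 2.06, 2.49 and 2.05 CPM in the 0 h libraries. The aldehyde dehydrogenase ALDH3I1 and HVA22E rose by log2 fold changes of 2.51 and 2.89. The markers took 2.44% ± 0.177 of counts in the 2 h libraries, against 0.885% ± 0.106 in the 0 h libraries.

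The windows of 250 bases just before the RefSeq gene start of RD20, LEA7 and LEA4-5 are shown because these genes had the smallest adjusted p-values among the named LEA and dehydration marker genes whose window holds the ABRE core, the letters ACGTG on either strand. They are given in the direction of the gene, from RefSeq TAIR10.1, with each ABRE core in capitals. The windows lie at chr2:14146556-14146805 (minus strand), chr1:19619474-19619723 (plus strand) and chr5:2090431-2090680 (minus strand).
RD20: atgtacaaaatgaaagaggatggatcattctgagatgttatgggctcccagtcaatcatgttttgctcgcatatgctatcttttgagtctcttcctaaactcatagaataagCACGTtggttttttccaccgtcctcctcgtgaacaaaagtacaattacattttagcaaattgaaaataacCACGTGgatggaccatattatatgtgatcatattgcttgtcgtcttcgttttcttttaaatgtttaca
LEA7: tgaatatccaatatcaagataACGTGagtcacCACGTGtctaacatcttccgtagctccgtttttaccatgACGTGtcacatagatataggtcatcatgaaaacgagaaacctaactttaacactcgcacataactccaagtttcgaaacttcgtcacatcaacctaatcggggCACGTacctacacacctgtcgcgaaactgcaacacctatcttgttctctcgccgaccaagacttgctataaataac
LEA4-5: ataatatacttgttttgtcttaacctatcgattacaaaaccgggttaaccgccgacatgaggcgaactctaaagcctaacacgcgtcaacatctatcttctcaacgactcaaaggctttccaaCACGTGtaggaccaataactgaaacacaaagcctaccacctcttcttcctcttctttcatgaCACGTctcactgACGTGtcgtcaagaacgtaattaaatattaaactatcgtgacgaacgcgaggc

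In each of the 3 windows a G-box, CACGTG, is present, and it holds the ABRE core on both strands. In RD20 the G-box starts 68 bases before the gene, in LEA7 218 and in LEA4-5 127 bases before it. LEA7 carries further cores that start 229, 179 and 76 bases before the gene, LEA4-5 at 65 and 53 and RD20 at 138. LEA7 and LEA4-5 also hold the DRE core CCGAC, which RD20 does not. Over 18500 tested nuclear genes with such a window, 23.9% held the ABRE core, 7.72% the G-box and 13.2% the DRE core. Among the 1118 that rose at least 4-fold the shares were 39.9%, 16.1% and 17.5%, and among the 716 that fell at least 4-fold they were 20.5%, 5.59% and 10.3%. The W-box core TTGAC, an element of WRKY factors, was found in 47.9% of those that rose and 44.6% of those that fell, against 44.9% of all. Of the 22 tested LEA genes 77.3% held the ABRE core and 40.9% the DRE core. Of the 42 photosystem and antenna genes, none of which rose, 40.5% held the ABRE core and 19% the G-box, shares close to those of the genes that rose at least 4-fold. A match is only a run of letters in the window and was not tested for binding.

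Stress transcription factors rose widely. Of 13 NAC factors 11 rose and none fell (median 2.197). ANAC019 had 992, 1004, 1009 and 1176 CPM in the 2 h libraries, against 29.0, 44.5, 31.1 and 18.8 CPM in the 0 h libraries. ANAC032 had 127, 149, 91.7 and 133 CPM in the 2 h libraries, against 5.17, 10.02, 8.02 and 8.08 CPM in the 0 h libraries. For both, all 2 h libraries lay far above all 0 h libraries (log2 fold changes 5.08 and 4.0001). NAP, a regulator of leaf senescence, averaged 872 ± 96.1 CPM at 2 h, against 132 ± 29.5 CPM at 0 h, and RD26 and ATAF1 rose by 2.45 and 2.29. Of 20 HD-Zip, MYB and zinc finger factors 13 rose and none fell, beside 23.2% and 20.3% of all genes. The HD-Zip gene HB7 had 653, 652, 636 and 671 CPM in the 2 h libraries, against 45.4, 54.0, 50.5 and 41.1 CPM in the 0 h libraries, which was 13.7-fold higher, with 2 h libraries that lay very close together. Its relative HB12 averaged 539 ± 32.8 CPM at 2 h, against 103 ± 15.5 CPM at 0 h. GBF3, which binds G-boxes, averaged 163 ± 11.6 CPM at 2 h, against 33.9 ± 3.85 CPM at 0 h. MYB96, an activator of wax synthesis, rose by 1.92 and MYB74 by 5.08.

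The CBF and DREB2 factors, which bind the DRE element, split. Of 10 tested, 5 rose and 2 fell, beside 23.2% and 20.3% of all genes. DREB2A, the drought and heat member, had 56.3, 74.6, 58.8 and 57.3 CPM in the 2 h libraries, against 7.15, 9.80, 12.8 and 9.49 CPM in the 0 h libraries. The cold factors CBF1 and CBF2 moved the other way: CBF1 had 3.77, 3.496, 4.61 and 2.92 CPM in the 2 h libraries, against 10.4, 13.1, 13.7 and 18.5 CPM in the 0 h libraries, with every 2 h library below every 0 h library, and CBF2 averaged 5.07 ± 1.42 CPM at 2 h, against 11.4 ± 3.26 CPM at 0 h. RAP2.4 rose by 0.73, and DDF1 and CBF4 were called higher at low levels, CBF4 with 50 counts at 2 h against 2 at 0 h (ratio between 6.14 and 198). Of 20 WRKY factors, known from defence and senescence, 4 rose and 1 fell, beside 23.2% and 20.3% of all genes. WRKY28 and WRKY48 rose by 2.35 and 1.82, WRKY25 by 0.88 and WRKY46 by 1.57 with overlapping groups, while WRKY22 fell to 5.18 CPM at 2 h, against 30.7 CPM at 0 h. WRKY46 was not called without 4 of the 8 libraries in turn, and without 0 h replicate 1 the number that rose was 6.

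Heat shock factors and chaperones were called higher in 9 of 17 tested members and lower in 2, beside 23.2% and 20.3% of all genes. HSFA6B, an ABA-responsive heat shock factor, had 746 counts over the 2 h libraries against 1 at 0 h, a ratio between 125 and 27576 by the counting interval. The chaperone HSP70 (AT3G12580) had 37.6, 46.8, 36.0 and 51.3 CPM in the 2 h libraries, against 7.198, 2.62, 3.41 and 2.83 CPM in the 0 h libraries. All 2 h libraries lay above all 0 h libraries (log2 fold change 3.41 ± 0.61 (SE), adjusted p = 0.000141). HSFC1, HSFB2B and HSFA2 rose by 1.35, 2.004 and 5.42, and HSFA3 and HSFA7A were called lower (-1.25 and -2.18) at low levels, HSFA3 not without 5 of the 8 libraries in turn. Of HSFB2B, 13.1% is shared with a tested gene on the opposite strand. HSP17.6II had 91 counts at 2 h and none at 0 h, 28.4-fold higher against a floor of 3 counts at 0 h.

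Among osmolyte genes, the main enzymes of proline synthesis and breakdown moved in opposite directions. P5CS1, the enzyme that limits proline synthesis in drought, had 1575, 2142, 2543 and 1688 CPM in the 2 h libraries, against 103, 261, 373 and 232 CPM in the 0 h libraries. PRODH1, which starts proline breakdown in mitochondria, had 10.2, 11.4, 21.1 and 45.1 CPM in the 2 h libraries, against 384, 489, 520.3 and 529.5 CPM in the 0 h libraries. P5CS1 rose 8.21-fold and PRODH1 fell 21.9-fold (log2 fold change -4.45 ± 0.57 (SE), adjusted p = 3e-06), and neither overlapped between the groups. The transporter PROT3 rose as well (15.5 ± 4.51 CPM at 2 h, against 0.739 ± 0.426 CPM at 0 h). PRODH2, the minor breakdown enzyme, was called higher (1.37, adjusted p = 0.0238) with overlapping groups, and P5CDH, the next enzyme of breakdown, fell slightly (-0.38), with 905 of its bases shared with a tested gene on the opposite strand. Both calls were lost without 0 h replicate 3, 0 h replicate 4 or 2 h replicate 4, and also PRODH2 without 2 h replicate 2 and P5CDH without 2 h replicate 1. In all, 3 of 9 members rose and 2 fell, beside 23.2% and 20.3% of all genes.

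Of 8 genes for galactinol, raffinose and inositol, 4 rose and 1 fell, beside 23.2% and 20.3% of all genes. RS5, a raffinose synthase, had 95.8, 158, 80.9 and 125 CPM in the 2 h libraries, against 10.04, 12.7, 12.9 and 13.4 CPM in the 0 h libraries. GOLS2, a galactinol synthase of drought, averaged 233 ± 71.0 CPM at 2 h, against 42.9 ± 11.8 CPM at 0 h, and GOLS1 and GOLS3 rose by 1.24 and 2.04. DIN10, a dark-induced member of the raffinose synthase family, fell to 595 CPM at 2 h, against 2144 CPM at 0 h. Of 14 trehalose phosphate synthases and phosphatases 4 rose and 3 fell, beside 23.2% and 20.3% of all genes. With the stricter filter on low counts, which left 9 tested, 3 rose and none fell. The named ones are all phosphatases: TPPG, TPPJ, TPPE and TPPF rose (2.82, 2.705, 1.60 and 2.39), and TPPH, TPPA and TPPB fell (-3.42, -1.30 and -3.06).

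Starch breakdown genes also went both ways, 5 of 14 higher and 7 lower, beside 23.2% and 20.3% of all genes. BAM1, the beta-amylase of stressed and daytime leaves, had 1001, 1526, 752 and 1063 CPM in the 2 h libraries, against 119.99, 141, 137 and 146 CPM in the 0 h libraries. BAM5, a beta-amylase outside the chloroplast, had 115, 149.9, 75.1 and 163 CPM in the 2 h libraries, against 2.59, 1.22, 3.36 and 5.61 CPM in the 0 h libraries. Both rose strongly (2.997 and 5.29). LSF1 rose by 0.86, and GWD1 and BAM3, of the breakdown at night, were called higher by 0.82 and 0.83, but not without replicate 1 or without replicate 2 at 0 h, where the number of members that rose was 3. GWD1 was not called without 2 h replicate 2 or 2 h replicate 3 either, nor BAM3 without 2 h replicate 4. PWD and AMY3 fell (-1.47 and -1.12). The breakdown of branched-chain amino acids in mitochondria, which feeds respiration when sugar is short, fell in 6 of 8 members and rose in none (median -1.83). BCE2 had 20.1, 20.2, 26.3 and 26.1 CPM in the 2 h libraries, against 105, 132, 159 and 160.4 CPM in the 0 h libraries. BCAT2 averaged 123 ± 20.1 CPM at 2 h, against 504 ± 97.3 CPM at 0 h, MCCA averaged 195 ± 34.5 CPM at 2 h, against 799 ± 222 CPM at 0 h, and ETFQO and DIN4 fell (-1.64 and -2.01).

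**Figure D3:**
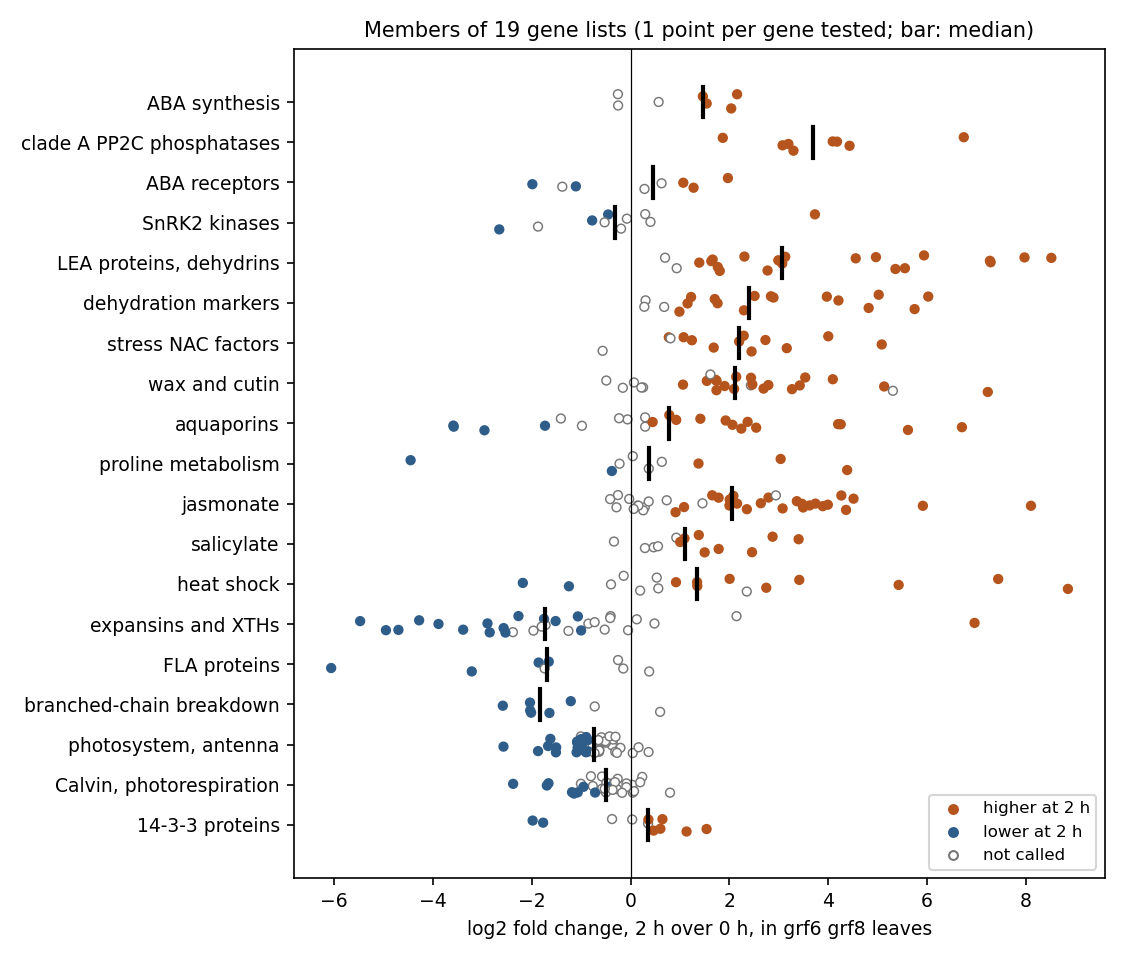
Log2 fold change (horizontal axis, 2 h over 0 h in grf6 grf8 leaves) of every tested member of 19 gene lists, 1 point per gene, with a black bar at the list's median. Filled orange points rose, filled blue points fell and open points were not called; the PP2C phosphatases lie wholly to the right (median 3.69), the branched-chain breakdown genes almost wholly to the left (median -1.83), and SnRK2 kinases and 14-3-3 proteins about 0.

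The cuticle is the waxy layer that limits water loss once stomata are shut. Of 26 wax and cutin genes 18 rose and none fell (median 2.12), and the count was 18 in each fit that left out 1 of the 8 libraries. CER2, which acts in the elongation of wax acids, had 158, 94.5, 212 and 141 CPM in the 2 h libraries, against 13.8, 13.2, 15.2 and 20.7 CPM in the 0 h libraries. LTPG1, a lipid transfer protein at the cell surface, had 155, 122, 156 and 157 CPM in the 2 h libraries, against 23.3, 25.7, 26.4 and 33.6 CPM in the 0 h libraries. KCR1 and CER10, enzymes of the elongase complex, averaged 94.0 ± 20.01 CPM at 2 h, against 28.2 ± 4.71 CPM at 0 h and 109 ± 28.5 CPM at 2 h, against 25.5 ± 4.21 CPM at 0 h. In all 4 genes 2 h replicate 2 was the lowest of its group and still exceeded every 0 h library. In the epidermis list 1 of 5 tested markers rose, beside 23.2% of all genes. It was FDH, which is itself a cuticle gene. The 7 markers of the list took between 0.0213 and 0.034% of counts in the 2 h libraries, against between 0.0125 and 0.0196% in the 0 h libraries. Membrane and storage lipid genes rose in 4 of 8 cases, beside 23.2% of all genes. LDAP1 and LDAP3, proteins of leaf lipid droplets, averaged 187 ± 37.0 CPM at 2 h, against 12.8 ± 5.62 CPM at 0 h and 56.3 ± 8.76 CPM at 2 h, against 23.597 ± 2.98 CPM at 0 h. PLDALPHA1 and PLDDELTA, phospholipases of dehydration, rose by 0.71 and 0.77, and MGD2 was not called (-0.46).

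Aquaporins, the water channels of plasma membrane (PIP) and vacuole (TIP), moved in both directions. Of 23 tested 13 rose and 4 fell, beside 23.2% and 20.3% of all genes. PIP1;4 had 1675, 1809, 1271 and 1697 CPM in the 2 h libraries, against 39.2, 41.4, 25.02 and 26.2 CPM in the 0 h libraries. All 2 h libraries lay far above all 0 h libraries (log2 fold change 5.61 ± 0.33 (SE), adjusted p = 2.06e-10). PIP2;3 had 297, 260.3, 213 and 295 CPM in the 2 h libraries, against 19.5, 15.5, 11.8 and 11.1 CPM in the 0 h libraries, and TIP1;1 had 1629, 1351, 861 and 1154 CPM in the 2 h libraries, against 65.2, 68.0, 64.9 and 64.0 CPM in the 0 h libraries. PIP1;1 averaged 893 ± 198 CPM at 2 h, against 153 ± 29.8 CPM at 0 h. Against these, TIP1;2 had 764, 733, 801 and 767 CPM in the 2 h libraries, against 2210.5, 2443, 2346 and 3181 CPM in the 0 h libraries, PIP1;5 had 26.1, 22.9, 28.8 and 17.1 CPM in the 2 h libraries, against 225, 287, 212 and 416 CPM in the 0 h libraries, and TIP2;1 had 101, 53.0, 76.8 and 67.3 CPM in the 2 h libraries, against 652, 552, 427 and 684 CPM in the 0 h libraries. These 3 fell without overlap (-1.73, -3.59 and -2.96), as did SIP1;2 at a low level (-3.58). TIP2;3 had 55 counts over the 2 h libraries and none at 0 h. In deposited FPKM, PIP1;4 stood at 953 ± 130.5 FPKM at 2 h, against 20.5 ± 6.78 FPKM at 0 h, TIP1;1 at 1147 ± 308 FPKM at 2 h, against 62.3 ± 6.04 FPKM at 0 h and TIP1;2 at 620.2 ± 36.2 FPKM at 2 h, against 2112 ± 223 FPKM at 0 h, so TIP1;1 was above TIP1;2 at 2 h and below it at 0 h. Members of the PIP1 and PIP2 groups are similar in sequence, so shared reads may have been divided among them.

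Jasmonate, a lipid-derived hormone best known from wounding and defence, was the subject of the next list. Of 38 tested genes of its synthesis, signalling, response and inactivation 25 rose and none fell (median 2.06). Their share of counts was 1.59% ± 0.281 of counts in the 2 h libraries, against 0.226% ± 0.0716 in the 0 h libraries. Besides LOX2, AOC2, an allene oxide cyclase with near copies, had 2505, 2121, 1707 and 2858 CPM in the 2 h libraries, against 177, 147, 83.5 and 70.3 CPM in the 0 h libraries. ACX1, which shortens the jasmonate precursor, had 1038, 1227, 984 and 1208 CPM in the 2 h libraries, against 232, 299, 283 and 296 CPM in the 0 h libraries. JAR1, which couples jasmonate to isoleucine, had 199, 186, 157 and 188 CPM in the 2 h libraries, against 35.2, 37.1, 34.9 and 35.6 CPM in the 0 h libraries. The signalling repressor JAZ12 averaged 385 ± 70.5 CPM at 2 h, against 91.1 ± 12.6 CPM at 0 h. In these 4 genes and in CYP94B3, 2 h replicate 3 was the lowest of its group and remained above all 0 h libraries. The list's count was 25 without that library, too.

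**Figure D4:**
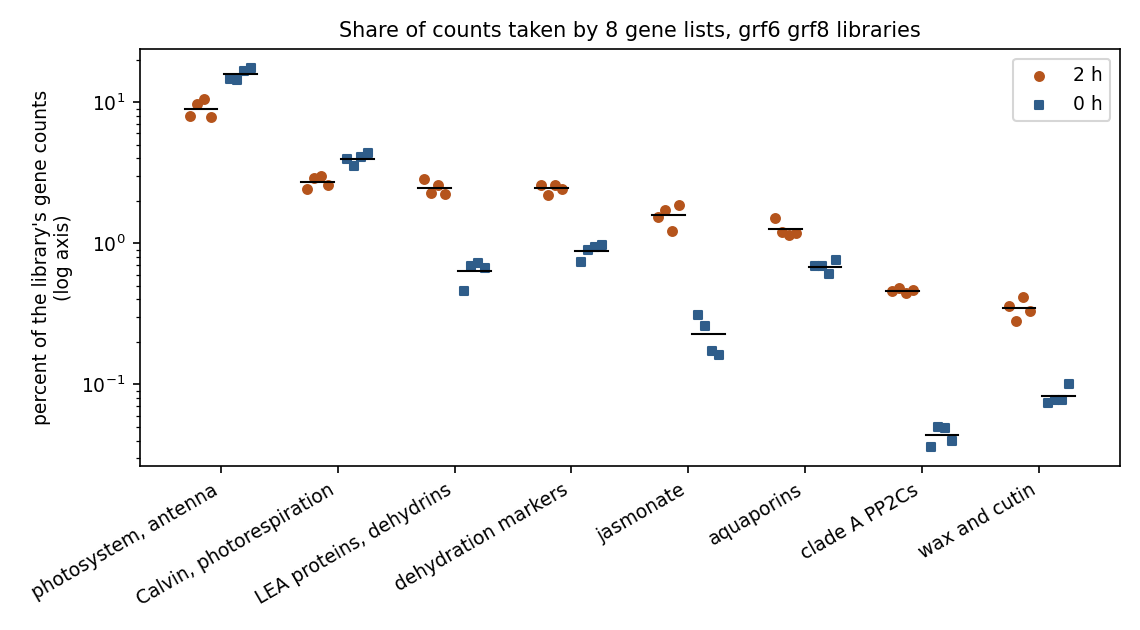
Share of each grf6 grf8 library's gene counts taken by 8 gene lists (vertical axis, percent, log scale), with the 4 libraries at 2 h at the left (orange circles) and the 4 at 0 h at the right (blue squares) and a bar at each mean. Photosystem and antenna genes took 7.80% to 10.5% at 2 h, against 14.2% to 17.39% at 0 h, and the PP2C phosphatases 0.445% to 0.485% at 2 h, against 0.0361% to 0.0503% at 0 h; no list overlaps between the groups.

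Salicylate is a hormone of defence. Of 13 members 8 rose and none fell, beside 23.2% and 20.3% of all genes, but the 5 named ones all overlapped between the groups. PR2, a defence glucanase and marker of the hormone, had 579, 2687, 168 and 1832 CPM in the 2 h libraries, against 172, 231, 34.7 and 60.9 CPM in the 0 h libraries. PBS3, of salicylate synthesis, had 99.4, 148, 21.6 and 94.9 CPM in the 2 h libraries, against 25.5, 16.03, 4.28 and 3.72 CPM in the 0 h libraries. Replicate 3 was the lowest of the 2 h group for both genes, and replicates 2 and 4 were the highest for PR2, so the 2 h values spread widely (log2 fold change 3.40 ± 0.82 (SE), adjusted p = 0.00222). ICS1, PR5 and PAD4 were called at 1.78, 2.46 and 1.09. PAD4 was not called without 2 h replicate 1, 0 h replicate 3 or 0 h replicate 4. Leaving out 0 h replicate 3 or 0 h replicate 4 left 4 calls each, and leaving out 2 h replicate 2 left 5. In ethylene synthesis and signalling 3 of 15 rose and 2 fell, again beside 23.2% and 20.3% of all genes. ACS2, a synthase of the ethylene precursor, averaged 23.4 ± 9.35 CPM at 2 h, against 3.45 ± 2.59 CPM at 0 h. ACO4 and EBF2 rose by 0.96 and 0.70, EBF1 fell by a small amount (-0.41), and ACO5 fell at under 1 CPM (-2.15), though not without 2 h replicate 4. Of EBF2, 17.2% is shared with a tested gene on the opposite strand.

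Secondary metabolism was followed in a pair of lists. Of 15 phenylpropanoid and flavonoid genes 5 rose and none fell, beside 23.2% and 20.3% of all genes. PAP1, the MYB activator of anthocyanin synthesis (AT1G56650), had 221 counts over the 2 h libraries against 3 at 0 h, a ratio between 23.3 and 336. CHI, C4H, FLS1 and PAL1 were called higher at 1.42, 1.28, 3.05 and 1.45, with C4H overlapping between the groups and PAL1 not called without 2 h replicate 4 or without replicate 2, 3 or 4 at 0 h. Of 21 glucosinolate genes 7 rose and 2 fell, beside the same shares of all genes. MYB34, an activator of the indole branch, had 32.9, 23.8, 23.5 and 33.0 CPM in the 2 h libraries, against 2.84, 2.505, 3.09 and 1.52 CPM in the 0 h libraries. MYB29, of the aliphatic branch, had 14.8, 16.95, 24.1 and 16.8 CPM in the 2 h libraries, against 2.28, 1.61, 0.975 and 0.629 CPM in the 0 h libraries. Both rose without overlap, and CYP79B3, SOT16 and MYB122 rose by 1.64, 1.68 and 2.95. MAM1, which lengthens the chain of aliphatic glucosinolates, fell to 76.6 CPM at 2 h, against 203 CPM at 0 h, and MAM3 was called lower with overlapping groups (-2.31), a call lost without 4 of the 8 libraries in turn. Without 0 h replicate 1, 9 glucosinolate genes rose.

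Every photosystem gene called in this comparison was lower at 2 h. Of 42 nuclear genes for photosystems and antennae 19 fell and none rose (median -0.75), beside 20.3% and 23.2% of all genes. They took 8.999% ± 1.35 of counts in the 2 h libraries, against 15.75% ± 1.55 in the 0 h libraries. LHCB2.2 had 351, 693, 549 and 357 CPM in the 2 h libraries, against 1549.5, 1509, 2218 and 1864 CPM in the 0 h libraries. LHCB4.2 had 788, 1453, 1379 and 791 CPM in the 2 h libraries, against 2712, 2966, 3864 and 4486 CPM in the 0 h libraries. LHCB3 had 1033, 2011, 1927 and 1107 CPM in the 2 h libraries, against 3714, 3372, 5231 and 4949.9 CPM in the 0 h libraries. In each, the 2 h libraries lay below the 0 h libraries, and 2 h replicates 2 and 3 were the higher ones. A tested gene on the opposite strand shares 13.2% of LHCB3. LHCB2.3 fell by more (-2.57), but 37.6% of that gene is shared with a tested gene on the opposite strand. The count of calls moved with the libraries used, while none was called higher in any of these fits. It was 32 without the 5 libraries high in cell division transcripts and 32 in a fit of the 2 groups alone, 27 with the cell division score as a covariate, and between 9 and 19 when 1 of the 8 libraries was left out. The lowest counts came without 0 h replicate 4 (9), 0 h replicate 3 (10), 2 h replicate 1 (10) or 2 h replicate 4 (11).

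Calvin cycle and photorespiration genes fell in 9 of 31 cases and rose in none (median -0.49), beside 20.3% and 23.2% of all genes. PRK, which makes the acceptor of carbon dioxide, had 228, 310.00, 284 and 251 CPM in the 2 h libraries, against 653, 696, 1045 and 1001 CPM in the 0 h libraries. GAPA2, a subunit of the chloroplast glyceraldehyde phosphate dehydrogenase, averaged 110.4 ± 25.6 CPM at 2 h, against 357 ± 44.0 CPM at 0 h. RBCS1B, a copy of the small Rubisco subunit whose reads may be shared with other copies, averaged 16.1 ± 1.03 CPM at 2 h, against 83.7 ± 27.7 CPM at 0 h, and the photorespiratory genes GOX2 and HPR1 fell (-1.15 and -1.19). Without 2 h replicate 1, 2 h replicate 4, 0 h replicate 3 or 0 h replicate 4 only 5 were called, and 16 were called without the 5 libraries high in cell division transcripts. None of the 5 mesophyll markers was called, the nearest being the Rubisco activase RCA (-0.76, adjusted p = 0.053). DESeq2 called 1 of them lower, and the fit of the 2 groups alone 4.

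Genes of chlorophyll breakdown and senescence were higher in 8 of 16 and lower in 3, beside 23.2% and 20.3% of all genes. SGR1, the enzyme that removes magnesium from chlorophyll, had 320.4, 397, 285 and 369 CPM in the 2 h libraries, against 51.2, 70.6, 47.3 and 59.9 CPM in the 0 h libraries. SGR2 and CLH1 rose by 2.12 and 2.25. ASN1, an asparagine synthetase induced in the dark, fell with SEN1, to 453 CPM at 2 h, against 1674 CPM at 0 h, and HCAR, which works in the chlorophyll cycle, fell (-0.91). Of 10 autophagy genes 2 rose, ATG8H (91.0 CPM at 2 h, against 18.7 CPM at 0 h) and ATG8A (0.82), and none fell, beside 23.2% and 20.3% of all genes. The call of ATG8A was lost when any 1 of the 8 libraries was left out. ATG8F, NBR1 and ATG8G were not called (-0.54, -0.28 and 0.19).

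Clock genes, whose transcripts follow the time of day, were called in 9 of 14 morning-phased cases, 3 higher and 6 lower. A second list, which holds later-phased genes and also CDF1, was called in 5 of 13 cases, 1 higher (CDF1) and 4 lower. Of all genes 23.2% were called higher and 20.3% lower, 43.4% together. CCA1, the central morning factor, had 104, 62.8, 104 and 66.3 CPM in the 2 h libraries, against 24.1, 35.0, 33.0 and 40.7 CPM in the 0 h libraries. RVE7 had 17.8, 15.71, 20.6 and 13.1 CPM in the 2 h libraries, against 77.9, 91.3, 168 and 150.1 CPM in the 0 h libraries. LNK1 and RVE6 rose by 1.31 and 0.97, and RVE1 and RVE8 fell (-1.22 and -1.25). PRR3, PRR5, GI and TOC1, which follow later in the day, fell (-1.83, -0.92, -0.72 and -0.56), and CDF1 was called higher (0.72) but not without 5 of the 8 libraries in turn. TOC1 overlapped between the groups, and its call was lost without 2 h replicate 1, 2 h replicate 3, 0 h replicate 3 or 0 h replicate 4. The effects of the hour and of dehydration on these genes cannot be told apart.

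Expansins and xyloglucan enzymes loosen and remodel the wall of growing cells. Of 30 expansins and xyloglucan enzymes 15 fell and 1 rose (median -1.74), and of 8 fasciclin-like arabinogalactan proteins 4 fell and none rose. Of all genes 20.3% fell and 23.2% rose. EXPA1, the leaf expansin, had 18.4, 9.91, 10.4 and 11.9 CPM in the 2 h libraries, against 111, 86.5, 92.8 and 85.8 CPM in the 0 h libraries. XTH6 had 1.17, 1.96, 3.61 and 1.12 CPM in the 2 h libraries, against 45.5, 34.5, 29.8 and 43.9 CPM in the 0 h libraries. XTH30 averaged 2.94 ± 1.34 CPM at 2 h, against 17.04 ± 2.58 CPM at 0 h. The exception was EXPA10, which had 353, 125, 198 and 258 CPM in the 2 h libraries, against 2.64, 1.06, 2.76 and 0.996 CPM in the 0 h libraries, a 125-fold rise without overlap (log2 fold change 6.96 ± 0.65 (SE), adjusted p = 5.93e-08). FLA13 and FLA18 averaged 2.05 ± 0.808 CPM at 2 h, against 19.1 ± 5.02 CPM at 0 h and 13.6 ± 1.21 CPM at 2 h, against 42.8 ± 12.9 CPM at 0 h, FLA2 was called lower with overlapping groups (-1.86, adjusted p = 0.013), and FLA8 was not called (-1.74). FLA9, FLA13, FLA18, FLA2 and FLA8 were each highest in 0 h replicate 1, the library high in cell division transcripts. The part of growing tissue in these falls was not tested. Without that library 13 expansins and xyloglucan enzymes and 3 FLA genes fell, FLA2 being the one lost. None of the 17 cell division markers was called in either direction, and their summed share was between 0.00317 and 0.00438% of counts in the 2 h libraries, against between 0.00307 and 0.00657% in the 0 h libraries.

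Growth hormone genes moved both ways. Of 21 auxin genes 7 fell and 3 rose, beside 20.3% and 23.2% of all genes. The early auxin genes IAA4, IAA13 and IAA14 fell (-2.01, -1.39 and -3.40), as did IAA3 (-1.35), which shares 41.5% of its length with a tested gene on the opposite strand. GH3.3 and GH3.6, which couple auxin to amino acids and so remove it, rose to 209 CPM at 2 h, against 41.3 CPM at 0 h, and to 38.5 CPM at 2 h, against 9.14 CPM at 0 h, and IAA17 was called higher (0.53), a call lost without 5 of the 8 libraries in turn. Of 11 brassinosteroid genes 6 fell and 3 rose, beside the same shares of all genes. The receptor BRI1 had 91.0, 78.1, 109 and 84.5 CPM in the 2 h libraries, against 202, 213, 271 and 259 CPM in the 0 h libraries. The synthesis genes DWF4 and DET2 fell (-2.49 and -1.03), and the co-receptor BAK1, the factor BES1 and ROT3 rose by 0.64, 0.99 and 1.77. A tested gene on the opposite strand shares 29.7% of BES1.

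Of 15 gibberellin genes 5 fell and 2 rose, beside 20.3% and 23.2% of all genes. GA2OX6, which inactivates the hormone, had 123, 129, 91.7 and 110.4 CPM in the 2 h libraries, against 22.2, 18.98, 33.0 and 35.3 CPM in the 0 h libraries. The receptor GID1B averaged 71.6 ± 23.8 CPM at 2 h, against 16.6 ± 1.98 CPM at 0 h, and its relative GID1A fell slightly (-0.70). The synthesis genes GA3OX1 and GA20OX3 fell at low levels (-2.68 and -2.10, GA20OX3 not without 0 h replicate 3). GA2OX1 had no counts over the 2 h libraries and 55 at 0 h, 19.6-fold lower with a floor of 3 counts at 2 h. Among bHLH factors of light and growth 4 of 12 fell and 2 rose, again beside 20.3% and 23.2% of all genes. PRE1, a promoter of cell elongation, had 0.777, 0.814, 1.47 and 0.682 CPM in the 2 h libraries, against 13.8, 12.02, 17.7 and 23.0 CPM in the 0 h libraries. PAR1, PAR2 and PIF4 fell (-4.40, -3.84 and -1.02). PIF3 went the other way, with 92.6, 56.8, 68.5 and 60.8 CPM in the 2 h libraries, against 9.99, 9.85, 11.1 and 11.7 CPM in the 0 h libraries, and PIL1 rose by 1.03.

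Ion pumps, nitrogen and antioxidant genes were called in both directions. Of 9 plasma membrane proton pumps, whose activity 14-3-3 proteins raise by binding them, 2 rose and 2 fell, near the 23.2% and 20.3% of all genes. AHA1, the main leaf pump, averaged 544 ± 38.5 CPM at 2 h, against 414 ± 32.7 CPM at 0 h (0.40, adjusted p = 0.0185), and AHA11 fell to 29.4 CPM at 2 h, against 74.1 CPM at 0 h. AHA10 rose and AHA4 fell at low levels (1.80 and -0.99), and AHA5 was not called (-0.34). The call of AHA1 was lost without replicate 2 of either group, that of AHA4 without replicate 3 of either group and that of AHA11 without 2 h replicate 4, and with the stricter filter, which left 6 pumps tested, none rose and 1 fell. Of 13 nitrogen genes 5 rose and 3 fell, beside 23.2% and 20.3% of all genes. NPF2.13, a nitrate transporter of old leaves, had 325, 311, 259 and 371 CPM in the 2 h libraries, against 62.2, 62.3, 77.2 and 51.1 CPM in the 0 h libraries. GLN1;3 and NPF7.3 rose by 1.57 and 1.87, NPF6.3 and GLT1 fell (-1.34 and -1.03), and NIA2, a nitrate reductase, was called lower with overlapping groups (-1.21), a call lost without 6 of the 8 libraries in turn. NPF7.2 had 39 counts at 2 h against 3 at 0 h (ratio between 3.86 and 61.5).

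Of 12 antioxidant genes 4 rose and 1, CAT3, fell, beside 23.2% and 20.3% of all genes. GR1, a glutathione reductase, had 148, 153, 147 and 169 CPM in the 2 h libraries, against 63.6, 68.6, 59.7 and 55.0 CPM in the 0 h libraries. APX1, the cytosolic ascorbate peroxidase, averaged 397 ± 137 CPM at 2 h, against 127 ± 37.8 CPM at 0 h, and GPX6 and SAPX rose by 1.21 and 0.71, SAPX not without 2 h replicate 1, 2 h replicate 4, 0 h replicate 3 or 0 h replicate 4. In the guard cell list, SLAH3, an anion channel, rose to 18.6 CPM at 2 h, against 3.72 CPM at 0 h, while GC1, MYB60 and BLUS1 were called lower at low levels (-1.73, -1.68 and -1.19), and KAT1 was not called (0.61). The call of MYB60 was lost without 7 of the 8 libraries in turn. That of BLUS1 was lost without replicate 1, 2 or 4 at 2 h and without replicate 1, 3 or 4 at 0 h. It was also lost in the fit of the 2 groups alone and without the 5 libraries high in cell division transcripts. With the stricter filter on low counts, which left 4 of the markers tested, none of the markers was lower. Leaving out 1 library left between 1 and 4 of them lower. The 11 markers together took between 0.0678 and 0.0932% of counts in the 2 h libraries, against between 0.0558 and 0.089% in the 0 h libraries, ranges that overlap. Among 10 phloem and xylem markers 1, the sugar exporter SWEET11, was called lower with overlapping groups (-1.25), beside 20.3% of all genes. SWEET11 was not called without 2 h replicate 1 or 0 h replicate 3, and no floral marker was called.

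The change in grf6 grf8 was then set beside that in WT leaves. In WT 4333 genes rose (23%) and 3607 fell (19.1%) over the same interval. Of the genes that rose in grf6 grf8 81.4% also rose in WT, and of those that rose in WT 82.0% also rose in grf6 grf8. For genes that fell the shares were 77.3% and 81.9%. Over the 18841 genes the log2 fold changes of the genotypes had a Pearson r of 0.874, given as a description because genes are not independent. The phosphatases had 3.69 in grf6 grf8 and 3.93 in WT, the LEA genes 3.07 and 3.05, the jasmonate genes 2.06 and 2.19, and the photosystem genes -0.75 and -0.94. The medians were -1.74 in grf6 grf8 and -0.88 in WT for the expansins and xyloglucan enzymes and -1.70 in grf6 grf8 and 0.12 in WT for the FLA genes, but no member of either list was called in the test of the difference. The unadjusted p of that edgeR test was under 0.05 for 5 of 30 expansins and xyloglucan enzymes. It was under 0.05 for 4 of 8 FLA genes and for 461 of all 18841 genes. EXPA11 had -4.95 in grf6 grf8 and -0.91 in WT, with an unadjusted p of 0.0188 and an adjusted p of 1 for the difference. In WT it averaged 9.92 ± 18.3 CPM at 2 h, against 18.7 ± 15.2 CPM at 0 h (SD, n = 4 each), so its WT libraries ranged widely. WT 2 h replicate 4 is another of the 5 libraries high in cell division transcripts (mean log2 CPM 1.23). The part of that library in the WT values of these wall genes was not tested.

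The test of the difference of the 2 h response between the genotypes called 1 gene of 18841 (0.00531%), and 461 genes had an unadjusted p under 0.05. The gene was AT5G07810, which lies under the 10 CPM asked of named genes and is named because its values were seen. It had 1.28, 1.25, 0.902 and 1.07 CPM in the mutant's 2 h libraries, against 0.304, 0.334, 0.325 and 0.367 CPM in its 0 h libraries. The mutant's 2 h libraries all lay above its 0 h libraries (log2 fold change 1.74 ± 0.26, SE). In WT it averaged 1.29 ± 0.162 CPM at 2 h, against 3.44 ± 0.659 CPM at 0 h (SD, n = 4 each), a log2 fold change of -1.40. The difference was 3.14 ± 0.35 on the log2 scale (edgeR quasi-likelihood test, adjusted p = 0.000218). DESeq2 called 4 genes, the stricter filter on low counts none, and the fit of the 4 groups alone 2.

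**Figure D5:**
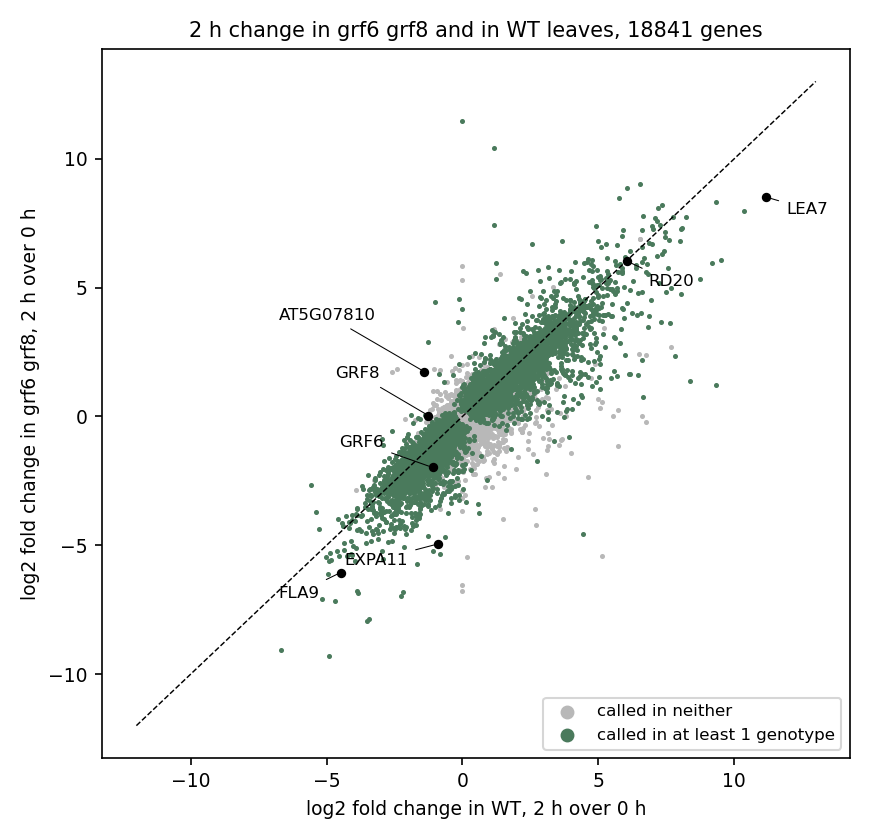
Log2 fold change, 2 h over 0 h, of 18841 genes in grf6 grf8 (vertical axis) and in WT (horizontal axis), with a dashed line where both are equal. Green points were called in at least 1 genotype and grey points in neither; GRF8 lies at 0.03 in grf6 grf8 and -1.25 in WT, and AT5G07810, the gene called in the test of the difference, at 1.74 and -1.40.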

How the data were processed

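Messenger RNA of rosette leaves was selected with oligo(dT), made into libraries with a NEBNext Ultra kit and sequenced on a NovaSeq instrument, per the labels' protocols. The deposited file of each library lists estimated counts per gene, all whole numbers, and FPKM values. The submitters' processing notes name RSEM, HISAT2, edgeR, DESeq2, StringTie 1.3.1, fastp 0.18.0 and Bowtie2 2.2.8, and the TAIR10 build, without their roles. Whether strand was used in counting is not given in the sources used here.

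Deposited counts of all 24 libraries were fitted together with edgeR 4.0.16 in R 4.3.3 (filterByExpr by the 6 groups, TMM scaling, robust quasi-likelihood fit), so the groups share 1 estimate of the spread, and p-values were adjusted by Benjamini-Hochberg over the 18841 genes tested. The SE of a log2 fold change was its size divided by the square root of the F statistic. List members that failed the filter on low counts were not tested, so counts are of tested members. Each of the 8 libraries compared held between 17.5 and 22.4 M counts, which leaves genes under 1 CPM with few counts. Counting intervals (exact, 95%) cover counting error only. Floors of 3 counts per group take the counts of the other group as exact, so the ratios from them are not lower bounds. Deposited FPKM were used only to compare levels between genes. Alternatives were DESeq2 1.42.0, other scaling, other filters, a replicate block, the compared groups alone, a cell division covariate, and libraries left out. Positions and promoter windows come from RefSeq TAIR10.1.

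The comparison, gene lists and tests were chosen with earlier results of these data known. Named were GRF6 and GRF8, the 12 highest and 12 lowest log2 fold changes among called genes with at least 10 CPM in a group and no overlap, the 6 largest gains and losses in CPM, and up to 5 tested members per list with the smallest adjusted p plus every member called against its list's direction. Genes with no counts in a group, and AT5G07810, were added after their values were seen. The libraries at 4 h entered only the fit.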

Additional observations from a re-analysis of the deposited data

Results flagged for a closer look

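Among 568 sets of 4 values examined within a group, 33 held a library set apart from the other 3 by a gap wider than Dixon's limit at 95% (5.81%), and chance gives this in about 1 in 20 sets. The share of counts taken by aquaporins was 1.503% in 2 h replicate 1 of grf6 grf8, above the other 2 h libraries, and the share taken by wax and cutin genes was 0.101% in 0 h replicate 4, above the other 0 h libraries. Below, a library set apart was the highest of its group unless it is said to be the lowest. 2 h replicate 1 stood apart with 0.333 CPM for BZIP61, 6.05 CPM for AT1G15125 and 1188 CPM for PIP1;1. It was the lowest with 0.721 CPM for PYL4, 3.995 CPM for WRKY22 and 12.2 CPM for PRR3. 2 h replicate 2 stood apart with 737 CPM for HAB1, 74.6 CPM for DREB2A and 1.92 CPM for DDF1, and was the lowest with 122 CPM for LTPG1. 2 h replicate 3 stood apart with 0.332 CPM for AT1G19530, 0.665 CPM for AT3G54830, 1.61 CPM for AT4G12980, 412 CPM for NCED3, 2.801 CPM for TPPF, 1.28 CPM for TPPH, 1.47 CPM for PRE1, 149 CPM for CYP79B3, 133 CPM for MAM1 and 3.18 CPM for MAM3. 2 h replicate 4 stood apart with 1176 CPM for ANAC019. 0 h replicate 1 stood apart with 125 CPM for RBCS1B and 0.406 CPM for FLS1. It was the lowest with 65.0 CPM for RD26, 30.7 CPM for ATAF1 and 359.6 CPM for BCAT2. 0 h replicate 2 stood apart with 43.5 CPM for MPK7, 0.111 CPM for CBF4 and 5.68 CPM for TPPG. 0 h replicate 4 stood apart with 31.8 CPM for CER10 and 0.0524 CPM for HSFA6B. For AT1G19530, CBF4 and HSFA6B the other libraries of the group held 0 CPM. Any count would have set a library apart there, so the rate of 1 in 20 does not apply to them. 

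AT5G07810 was set apart because its 2 h change differed between the genotypes, by 3.14 on the log2 scale in grf6 grf8 minus WT (edgeR, adjusted p = 0.000218), at mean levels under 5 CPM in all 4 groups.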

How the results depend on the processing

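With 4363 genes higher and 3821 lower in the fit reported, RLE scaling gave 4244 and 3916, DESeq2 4528 and 4292, no filter on low counts 4065 and 3838, a stricter filter 3511 and 3185, the compared groups alone 5032 and 4918, the fit without the 5 libraries high in cell division transcripts 5168 and 5093, and that score as a covariate 5379 and 4962. Leaving out 1 of the 8 libraries gave 3685 to 4245 higher and 3081 to 3700 lower. The test of the difference between the genotypes called 1 gene in the fit reported and in every fit that left out 1 library, 4 with DESeq2, 0 with the stricter filter, which does not test AT5G07810, 2 in the compared groups alone and 2 with the covariate; the cause was not tested. Of 298 named genes 264 were called, 233 of these in every alternative that gave a value, 31 lost their call in at least 1, and 18 of the 34 not called gained one; none reversed. Same-numbered libraries of both groups had deviations that correlated at 0.132, 0.187, 0.191 and -0.09, and 2 of the 4 numbers had their own number as best partner, so, with 1 of the 4 correlations under 0.1, the numbers were not taken to pair the samples. With the replicate block 4235 genes were higher and 3653 lower, and LHCB1.5, PUB22, MYB60 and BLUS1 were not called. Across settings the median log2 fold change of all genes lay between 0 and 0.03. Depth limits genes under 1 CPM.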
